A study of Mus musculus and Mus musculus musculus x Mus musculus castaneus with 52 samples.

Results

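The comparison is of mouse embryonic stem cell (ESC) lines that carry 2 X chromosomes with lines that carry 1, described over the autosomes. It uses 4 libraries, those of the CM lines at passage 5, out of 52 samples in the series, of which 32 are RNA sequencing samples and give 24 columns of 1 expression table. CM1 and CM2 are female, named WT XX ESCs, and CM3 and CM7 are male, named WT XY ESCs. All 4 are wild type and undifferentiated, carry no transgene or deletion in the labels, and derive from Mus musculus musculus crossed with Mus musculus castaneus. Each line gave 1 library, so the spread within a group is the spread between 2 lines, and the labels tell no more of how the lines were derived. An XX and an XY line differ in the number of X chromosomes and in the presence of a Y, and these cannot be told apart here. The growth protocol of the RNA samples was not given in the sources used here. That of the chromatin samples names feeder cells that are male and wild type, medium with serum and LIF (a cytokine that keeps ESCs from differentiating), and a step that removes feeders.

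Early female mouse ESCs keep both X chromosomes active, and one is silenced on differentiation, when the RNA Xist coats it. Several X-linked genes act on pathways of pluripotency, among them Dusp9, a phosphatase that inactivates the kinase ERK. In mouse ESCs, FGF signalling through ERK favours exit from the naive state, the state of the preimplantation epiblast, towards the formative and primed states that follow implantation. Naive cells grown with inhibition of this pathway carry less DNA methylation than cells grown in serum, and a class of germline genes is kept silent by methylation of their promoters.

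The libraries held 10189650 reads in CM1, 12337001 in CM2, 11002860 in CM3 and 12893191 in CM7 over 16687 genes. Levels are log2 CPM, read counts scaled to the size of the library, with an offset, so that a gene with 0 reads stands at -2.45. A difference is XX minus XY on that scale, fitted with limma and given ± its standard error (SE). A gene is called where its p-value, two-sided and adjusted by Benjamini-Hochberg over all 14117 tested genes, is under 0.05, and tested where its mean is 1 CPM or more. A difference of a low gene understates its fold change because of the offset. An exact two-sided permutation test of 2 against 2 libraries cannot give a p below 0.333, so the p of a gene rests on the variance that limma shares across genes.

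The sex chromosomes fitted the labels for 5 of the 6 genes read as checks. Xist (chromosome X, 103460373 to 103483233, GRCm38) stood at 7.13 in CM1 and 6.95 in CM2, against -0.63 in CM3 and -0.18 in CM7, where the XY libraries held 14 reads together. Dusp9 was at 8.08 and 7.89 in the XX libraries and 6.61 and 7.09 in the XY libraries, a difference of 1.14 ± 0.14 (adjusted p = 0.000642). The Y-linked Ddx3y stood at 2.14 and 2.99 in CM1 and CM2, and at 6.12 and 6.5 in CM3 and CM7. Uty was at 0.45, 1.46, 5.66 and 5.51 in CM1, CM2, CM3 and CM7, and Eif2s3y at 1.65, 2.31, 5.27 and 5.37. The XX libraries therefore held some Y-linked reads, 137 of Ddx3y, 43 of Uty and 88 of Eif2s3y, whose source was not tested. Kdm5d, the other Y-linked gene read, had 43 reads in the XX libraries and 50 in the XY libraries and did not separate them. Markers of fibroblasts, the cell type of feeders, summed to 505 to 586 CPM with no order by sex, and 0 of 26 tested genes of the fibroblast list were called (the highest, Fn1, at 11.26, 11.35, 11.35 and 11.40). Pluripotent markers summed to 3970 and 3939 CPM in CM1 and CM2 and to 3627 and 3189 in CM3 and CM7. Of 6 markers of cells like those of the 2-cell embryo 1 was in the table, at no more than 0.579 CPM. Bulk libraries cannot tell fewer cells of a type from less RNA per cell.

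X-linked genes were higher as a class in the XX lines. The median X-linked gene minus the median autosomal gene was 0.20 in CM1, 0.27 in CM2, -0.51 in CM3 and -0.45 in CM7, a difference of 0.71 (exact permutation p = 0.333, the smallest possible). Among 531 X-linked genes, 52.9% passed the test, 275 of them as higher and 6 as lower.

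The autosomal response was wide. Over 13062 autosomal genes, the fit called 692 higher in the XX lines and 692 lower, which is 5.3% in each direction and 10.6% together. The balance moved with the scaling, to 800 higher and 644 lower with median-ratio scaling and 693 higher and 770 lower with quantile normalization. The increases were the larger ones. At least 2-fold, 264 called genes were higher and 180 lower, and at least 4-fold 71 were higher and 22 lower. The median difference was 0.77 among genes called higher and -0.70 among genes called lower, while the median over all autosomal genes was -0.03 with quartiles of -0.26 and 0.21. Protein-coding genes were called higher 676 times and lower 687 times of 12455, and long non-coding RNAs were called higher 13 times and lower 4 times of 267.

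**Figure D1:**
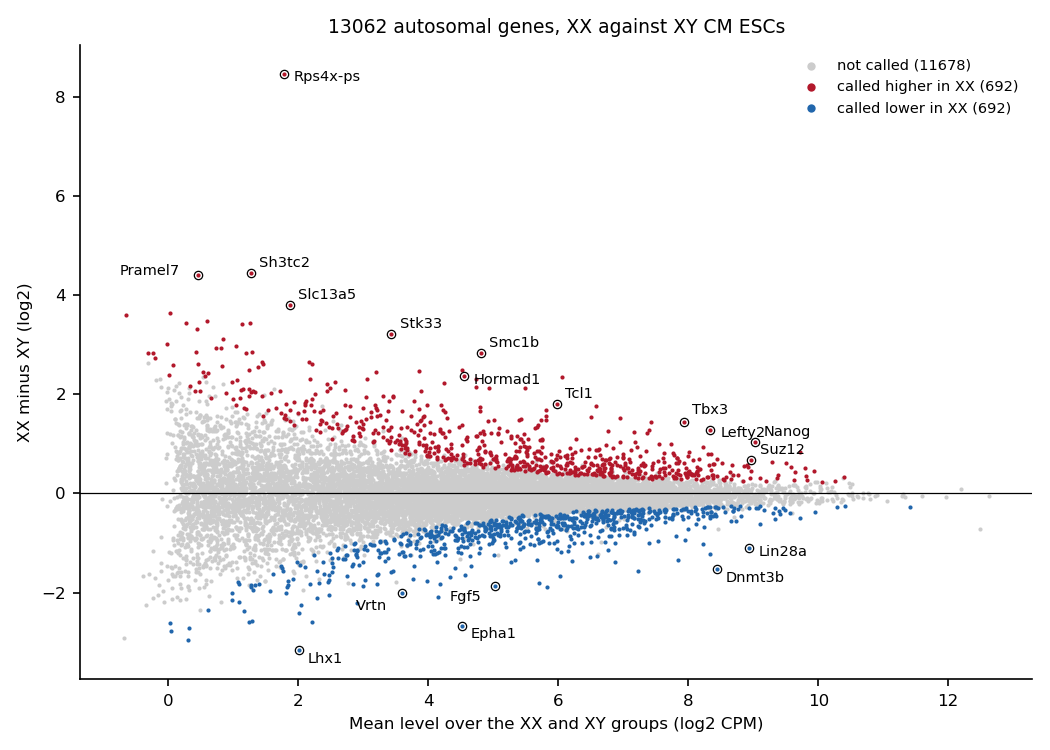
XX minus XY difference (log2) of every tested autosomal gene against its mean level over the 2 groups (log2 CPM), with called genes in red (higher in XX, 692) and blue (lower in XX, 692) and 18 named genes circled. The increases reach further from 0 than the decreases, and the spread narrows as the level rises.

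The lines of 1 sex were closer to each other than to the lines of the other sex. CM1 and CM2 differed at least 2-fold in 492 autosomal genes, CM3 and CM7 in 847, and an XX line and an XY line in 1177 to 1489. The median absolute difference was 0.15 between CM1 and CM2, 0.20 between CM3 and CM7, and 0.27 to 0.28 between the sexes. All 1384 called autosomal genes had groups that did not overlap. A call favours such genes, and genes that were not called, such as Pou5f1 and Sox2, had groups apart too. The share of all tested genes with groups apart is not given, so this adds no support to the calls. The number of calls depended on which library was used, since 180 autosomal genes were called without CM1, 144 without CM2, 3075 without CM3 and 2640 without CM7. Without an XX line, the spread comes from the more distant XY pair alone, and without an XY line from the closer XX pair alone. The fits without CM3 and without CM7 ended few calls. A call that held whichever library was left out was therefore tried mainly by the fits without CM1 and without CM2. Called whichever library was left out were 112 autosomal genes, 71 higher and 41 lower. The adjusted p given below for a lost call is the largest that the gene had in these 4 fits unless 1 fit is named beside it, and a range runs over genes.

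**Figure D2:**
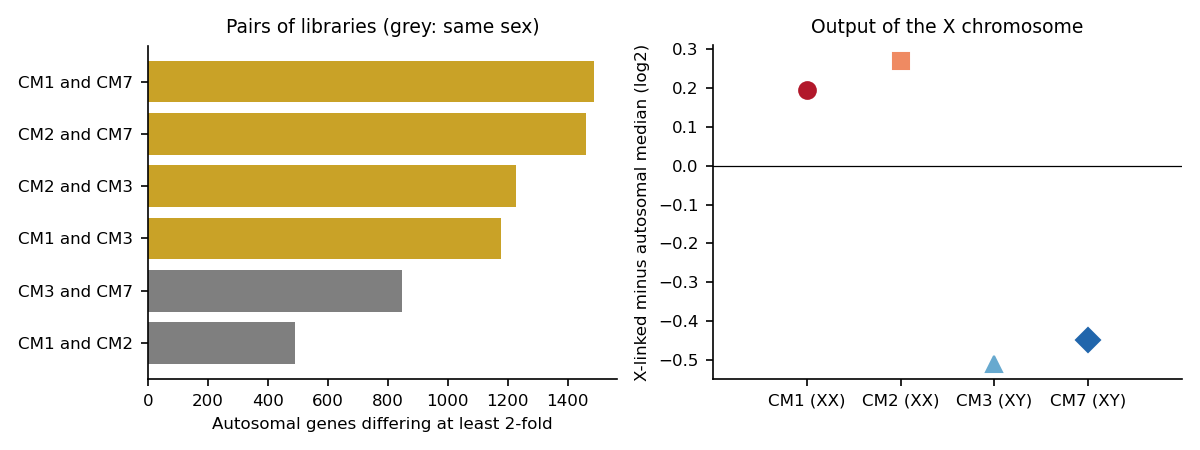
Left, number of autosomal genes that differ at least 2-fold between each pair of libraries (grey, same sex; ochre, different sex), and right, the X-linked minus the autosomal median (log2) in each library. The 4 pairs of different sex hold 1177 to 1489 genes against 492 and 847 for the pairs of the same sex, and the XX libraries stand above 0 and the XY libraries below it.

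Genes with higher levels were called more often and at smaller differences. Of the 3266 autosomal genes with the lowest mean levels 4.99% were called, with the smallest called difference at 1.06, and of the 3266 with the highest levels 15.8%, down to 0.24. The low genes were called higher 106 times and lower 57 times, and the high genes 250 and 267 times.

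Genes of the naive state were mostly higher in the XX lines. Of 22 genes in the naive list, all tested, 13 were called higher and 2 lower, against 5.3% of autosomal genes in each direction, and the median difference was 0.43 (0.68 without CM3 and 0.31 without CM7). The summed level of the list was 6598 and 6775 CPM in CM1 and CM2 and 4901 and 4189 CPM in CM3 and CM7. Tbx3, a T-box transcription factor (chromosome 5, 119670534 to 119684724), stood at 8.66 in CM1, 8.65 in CM2, 7.20 in CM3 and 7.24 in CM7, 2.7-fold higher in XX (1.43 ± 0.08, adjusted p = 5.29e-06). Nanog, a homeodomain factor that sustains self-renewal (chromosome 6, 122707489 to 122714633), stood at 9.50, 9.59, 8.62 and 8.40, 2.05-fold higher (1.04 ± 0.08, adjusted p = 6.48e-05). Tcl1, a cofactor of the kinase Akt, was the farthest of the list at 6.91, 6.83, 5.31 and 4.85, 3.46-fold higher (1.79 ± 0.15, adjusted p = 7.38e-05). For each of these genes both XX lines lay above both XY lines, by far more than the lines of 1 sex differed.

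The same order held for other members of the naive list. Prdm14, a repressor of FGF receptors and of the de novo DNA methyltransferases (chromosome 1, 13113428 to 13127163), was at 6.27 and 6.41 in the XX libraries and 5.23 and 4.76 in the XY libraries (1.35 ± 0.16, adjusted p = 0.000533). Tfcp2l1, a factor downstream of LIF, was at 10.05 and 10.23 against 9.36 and 9.23 (0.84 ± 0.08, adjusted p = 0.000135). The Krüppel-like factors did not move together. Klf4 was higher in XX, at 8.37 and 8.38 against 7.71 and 7.55 (0.75 ± 0.08, adjusted p = 0.00035), and so was Klf5 by 0.38 ± 0.08 (adjusted p = 0.0141), while Klf2 was lower, at 7.74 and 7.58 against 7.99 and 7.95 (-0.31 ± 0.09, adjusted p = 0.0426). Esrrb, an orphan nuclear receptor, was higher by 0.44 ± 0.10 (adjusted p = 0.0192), although its XY lines themselves stood at 9.60 and 9.24 and the difference without CM7 was 0.26. Zfp42, known as Rex1, was higher by 0.57 ± 0.11 (adjusted p = 0.00878). Other called members were Zfp57 (0.67), Dppa5a (0.60) and Nr5a2 (0.42), which were higher, and Stat3, the transcription factor that LIF activates, which was lower (-0.52). Dppa3, a maternal factor that guards methylation, stood at 5.02, 5.14, 5.66 and 5.43 and was not called (-0.46 ± 0.14, adjusted p = 0.0614).

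Nanog, Klf4, Tfcp2l1, Tbx3, Prdm14 and Tcl1 stayed called whichever library was left out. Of the members called higher, 6 lost the call without CM1 and without CM2, with a largest adjusted p of 0.0587 to 0.339, and Klf2 and Stat3 did so with up to 0.437. Within the XY pair, CM7 lay below CM3 in all but 2 of the 22 genes, with a median CM7 minus CM3 of -0.22, while the median CM1 minus CM2 was -0.02.

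The core pluripotency genes divided between both directions. Of 12 tested, 1 was called higher and 3 lower, with a median of 0.03 (-0.11 without CM7). Pou5f1 (Oct4) was at 9.40, 9.48, 9.33 and 9.10 and was not called (0.22 ± 0.08, adjusted p = 0.118), nor was Sox2, at 8.76, 8.60, 8.48 and 8.40 (0.23 ± 0.08, adjusted p = 0.0885). Lin28a, the RNA-binding protein that blocks maturation of let-7 (chromosome 4, 134003330 to 134019196), was the clear exception at 8.37 and 8.38 in the XX libraries and 9.42 and 9.53 in the XY libraries, 2.14-fold lower in XX (-1.10 ± 0.07, adjusted p = 1.82e-05). Its call held without each library. Tcf3 in this list is the E-protein gene and not Tcf7l1, the pluripotency regulator also known as Tcf3. Tcf7l1 is in the Wnt list and was not called (0.10 ± 0.09, adjusted p = 0.564). The E-protein Tcf3 (-0.44 ± 0.08) and the zinc-finger factor Sall4 (-0.29 ± 0.07) were lower. Rif1, a factor of DNA replication timing, was higher (0.24 ± 0.06). These 3 calls were lost without CM1 and without CM2, with an adjusted p of at most 0.429.

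Genes of the formative and primed states were lower in the XX lines. Of 16 tested, 10 were called lower and 0 higher, and the median was -0.91. Dnmt3b, a de novo DNA methyltransferase (chromosome 2, 153649411 to 153687730), stood at 7.70 in CM1, 7.65 in CM2, 9.32 in CM3 and 9.09 in CM7, 2.89-fold lower in XX (-1.53 ± 0.09, adjusted p = 8.48e-06). Fgf5, a ligand of the postimplantation epiblast (chromosome 5, 98254184 to 98277033), stood at 4.17, 4.00, 5.29 and 6.64 (-1.88 ± 0.33, adjusted p = 0.00518). Both XY lines were above both XX lines for Fgf5, but they were far apart, and the difference was -1.20 without CM7 and -2.55 without CM3. Grhl2, an epithelial transcription factor, was at 5.56, 5.43, 6.5 and 6.43 (-0.96 ± 0.11, adjusted p = 0.000514). Lef1, a nuclear effector of Wnt, was lower (-1.16), and so was Cldn6, a tight-junction protein (-1.34). Pim2, an X-linked kinase of this list, was lower too, at 5.16, 5.43, 6.57 and 6.83 (-1.41 ± 0.14, adjusted p = 0.000168), and it was named after its values were seen. Dnmt3b, Grhl2 and Pim2 held their calls without each library, and the other 7, Fgf5 among them, lost them without CM1 and without CM2, with largest adjusted p of 0.0579 to 0.383. Otx2, an early formative factor, was not called, at 5.57, 5.37, 5.65 and 5.59 (-0.15 ± 0.13, adjusted p = 0.501).

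**Figure D3:**
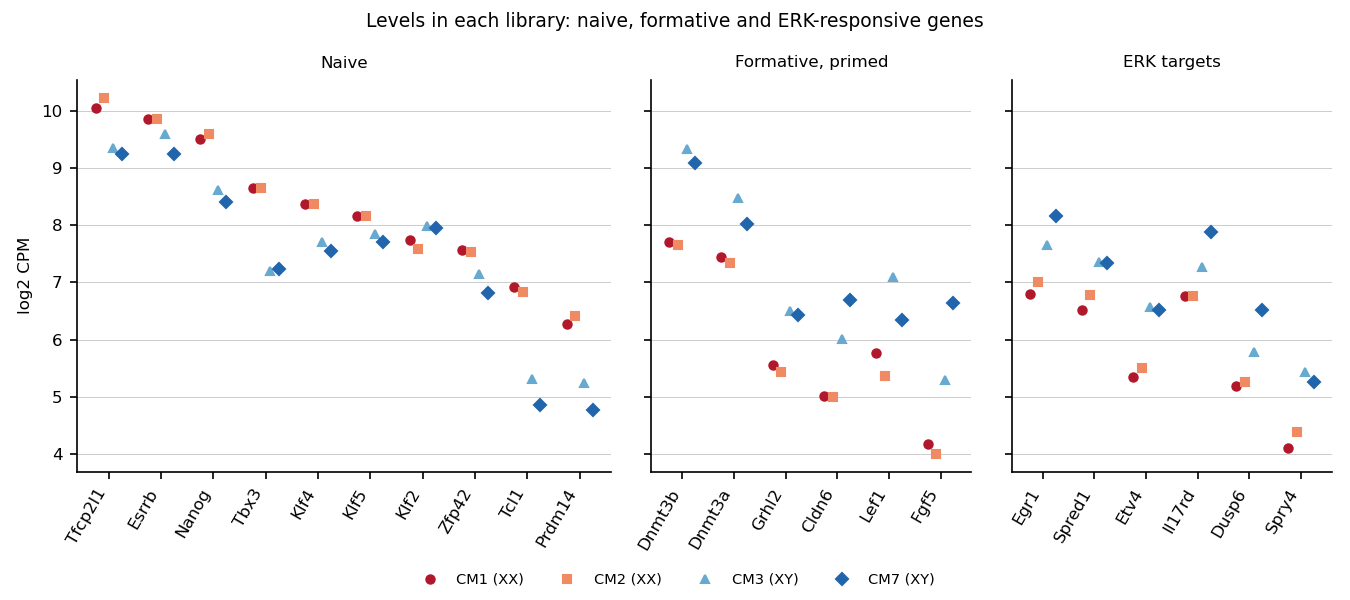
Level (log2 CPM) in each of the 4 libraries of 10 naive genes, 6 formative and primed genes and 6 ERK-responsive genes, with the XX lines in red and orange and the XY lines in blue. The XX lines lie above the XY lines for the naive genes other than Klf2 and below them for the other 12 genes. Every gene drawn was called, so this separation follows from the choice of genes. Members that were not called, such as Otx2 and Etv5, are not drawn.

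Targets and feedback inhibitors of ERK were lower where they were called. Of 22 tested, 6 were called lower and 0 higher, 19 had a negative difference, and the median was -0.39. Without CM7 the median was -0.18, with 9 called lower and 1 higher, and without CM3 it was -0.65, with 13 called lower. Etv4, an ETS factor induced by FGF (chromosome 11, 101769747 to 101785310), stood at 5.35 in CM1, 5.50 in CM2, 6.58 in CM3 and 6.51 in CM7 (-1.12 ± 0.11, adjusted p = 0.000227). Spry4, an inhibitor of receptor tyrosine kinase signalling, stood at 4.12, 4.38, 5.44 and 5.26 (-1.10 ± 0.17, adjusted p = 0.00205). Egr1, an immediate-early zinc-finger factor, stood at 6.80, 7.00, 7.65 and 8.15 (-1.0 ± 0.14, adjusted p = 0.00163). Each of these was about as far apart between the sexes as Nanog, in the opposite direction. Dusp6, a cytoplasmic ERK phosphatase, was at 5.20, 5.26, 5.78 and 6.52 (-0.93 ± 0.20, adjusted p = 0.0147), and the difference was -0.56 without CM7. Il17rd, a feedback inhibitor of FGF signalling, was lower (-0.82; -0.51 without CM7), and Spred1 was lower (-0.69). Etv5, a close relative of Etv4, was not called, at 6.89, 6.84, 7.04 and 7.01 (-0.16 ± 0.09, adjusted p = 0.29). Of the 6 calls, that of Etv4 held without each library, 5 were lost without CM1 and 2 without CM2, with an adjusted p of up to 0.179.

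Of 13 FGF ligands and receptors tested, the ligands Fgf5 and Fgf17 were called lower and none higher. Fgf17 stood at 4.22, 4.54, 5.30 and 5.00 (-0.77 ± 0.18, adjusted p = 0.0213), a call lost without CM1 and without CM2. Of 13 genes of the LIF and Stat3 list, 7 were called higher and 1, Stat3, lower, with a median of 0.31. Klf4, Klf5 and Tfcp2l1 of the naive list are among the 7. Il6st, the gp130 subunit that LIF receptors share, stood at 7.72, 7.80, 7.42 and 7.23 (0.43 ± 0.09, adjusted p = 0.0135), while Stat3 stood at 6.40, 6.61, 7.04 and 6.99 (-0.52 ± 0.10, adjusted p = 0.00984). Socs3, a direct Stat3 target and inhibitor, was not called and was named after its values were seen (-0.48 ± 0.16, adjusted p = 0.0784). Only Klf4 and Tfcp2l1 of these 8 kept the call in all 4 fits with a library left out.

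Among 19 genes that write, read or erase DNA methylation, 2 were called lower, 1 higher, and the median was 0.01. Without CM7, 7 were called lower and 2 higher with a median of -0.15, and without CM3 2 lower and 6 higher with a median of 0.05. Both de novo methyltransferases were lower, Dnmt3b as above and Dnmt3a at 7.45, 7.33, 8.48 and 8.02 (-0.86 ± 0.13, adjusted p = 0.00205). Zfp57, which keeps methylation at imprints, was higher, at 8.41, 8.39, 7.83 and 7.63 (0.67 ± 0.09, adjusted p = 0.000866). The Dnmt3a and Zfp57 calls were lost without CM1 and without CM2, with a largest adjusted p of 0.0818 and 0.0587. Maintenance genes did not pass the test. Dnmt1 was at 9.25, 9.30, 9.50 and 9.23 (-0.09 ± 0.09, adjusted p = 0.567), and its partner Uhrf1 at 9.16, 9.20, 9.09 and 8.99 (0.14 ± 0.07, adjusted p = 0.225). The cofactor Dnmt3l was at 8.27, 8.13, 8.32 and 7.79 (0.14 ± 0.14, adjusted p = 0.572). Tet1, a dioxygenase that oxidises methylcytosine, was at 10.21, 10.23, 10.41 and 9.95 (0.04 ± 0.12, adjusted p = 0.871), and Tet2 at 8.27, 8.31, 8.14 and 7.67 (0.38 ± 0.13, adjusted p = 0.0834).

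Germline genes that are silenced by promoter methylation in somatic cells included some of the largest differences. Of 34 listed, 32 were in the table and 28 were tested, of which 10 were called higher and 1 lower, with a median of 0.28 (0.43 without CM3). Without CM7, 10 were called higher and 5 lower. Smc1b, a meiotic cohesin subunit, stood at 6.26 in CM1, 6.20 in CM2, 4.00 in CM3 and 2.79 in CM7, 7.11-fold higher in XX (2.83 ± 0.31, adjusted p = 0.00032). Hormad1, a protein of the meiotic chromosome axis, stood at 5.75, 5.70, 3.50 and 3.23, 5.16-fold higher (2.37 ± 0.17, adjusted p = 3.58e-05). Dazl, an RNA-binding protein of germ cells, stood at 5.21, 4.96, 3.62 and 3.26, 3.13-fold higher (1.65 ± 0.20, adjusted p = 0.000634). In all 3 the XX lines were nearly alike and the XY lines lay lower, with reads in each.

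Tuba3a, a testis tubulin, was at 4.56, 4.28, 2.09 and 1.85 (2.45 ± 0.26, adjusted p = 0.000307) and Tuba3b at 2.72, 3.23, -0.86 and -0.06 (3.43 ± 0.50, adjusted p = 0.00169). These 2 genes are close copies of each other, so reads could have been split between them and their separate values are uncertain. Fkbp6, which acts in meiosis and the piRNA pathway, was at 3.55, 3.54, 1.37 and 1.33 (2.20 ± 0.32, adjusted p = 0.0016). The other called members, which the naming rule did not reach, were Sycp1 (1.78 ± 0.28), a filament protein of the synaptonemal complex, Mael (1.42 ± 0.38), Stk31 (1.21 ± 0.26) and Hormad2 (1.14 ± 0.17). Ddx4, the germ-cell helicase Vasa, went the other way, at 4.23, 4.33, 5.22 and 4.90 (-0.78 ± 0.17, adjusted p = 0.0158). Dazl, Hormad1, Smc1b and Tuba3a stayed called without each library. Of the other 6 called higher, 5 lost the call without CM1 and all 6 without CM2, with an adjusted p of up to 0.362, and that of Ddx4 was 0.19 at most. CM7 was below CM3 in 25 of the 28 genes.

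**Figure D4:**
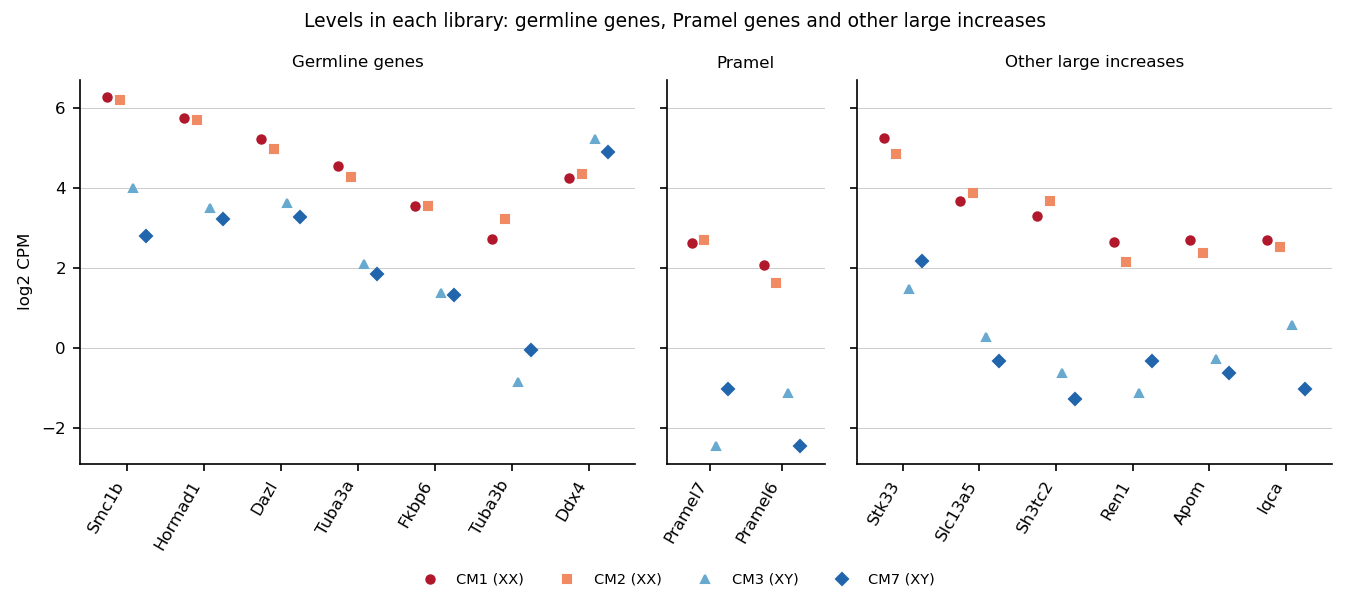
Level (log2 CPM) in each of the 4 libraries of 7 germline genes, of Pramel7 and Pramel6 and of 6 further genes among the largest increases, with the floor for 0 reads at -2.45. The XX lines lie above the XY lines for every gene drawn except Ddx4. Every gene drawn was called, so this separation follows from the choice of genes.

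The start regions of 4 of the genes that were higher are shown because 3 of them belong to the germline class defined by promoter methylation and are rich in CG pairs, while the fourth is not. Each is the 250 bases before the RefSeq start of the gene in GRCm38.p6, on the minus strand in every case, and capitals mark CG pairs, the sites of DNA methylation. They lie at chr17:50293621-50293870 for Dazl (20 CG pairs), chr15:85131958-85132207 for Smc1b (25), chr3:102936101-102936350 for Sycp1 (17) and chr2:87492419-87492668 for Pramel7 (1).
Dazl: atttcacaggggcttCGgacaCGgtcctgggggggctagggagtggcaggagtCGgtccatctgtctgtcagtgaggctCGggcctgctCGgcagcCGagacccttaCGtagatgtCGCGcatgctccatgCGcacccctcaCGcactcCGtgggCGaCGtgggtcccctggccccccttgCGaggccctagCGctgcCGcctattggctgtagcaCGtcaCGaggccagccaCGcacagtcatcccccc
Smc1b: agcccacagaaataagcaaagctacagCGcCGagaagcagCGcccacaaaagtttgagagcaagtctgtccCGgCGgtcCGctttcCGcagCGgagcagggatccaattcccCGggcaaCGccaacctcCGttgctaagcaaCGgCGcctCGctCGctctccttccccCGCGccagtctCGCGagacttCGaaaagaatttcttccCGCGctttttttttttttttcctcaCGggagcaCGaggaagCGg
Sycp1: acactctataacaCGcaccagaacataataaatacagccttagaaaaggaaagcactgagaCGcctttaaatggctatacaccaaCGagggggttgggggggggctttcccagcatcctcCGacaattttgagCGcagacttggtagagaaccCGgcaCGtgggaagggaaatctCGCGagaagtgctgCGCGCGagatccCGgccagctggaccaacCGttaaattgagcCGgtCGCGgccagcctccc
Pramel7: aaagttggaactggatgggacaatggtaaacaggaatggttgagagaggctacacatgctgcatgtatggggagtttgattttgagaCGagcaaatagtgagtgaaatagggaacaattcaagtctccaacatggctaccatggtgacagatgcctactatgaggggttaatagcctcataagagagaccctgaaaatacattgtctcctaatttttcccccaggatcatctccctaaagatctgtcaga
The median of 32851 such windows in the RefSeq promoter table is 6 CG pairs, with quartiles of 2 and 16. All 10 germline genes called higher had an entry, with 8 to 25 CG pairs in the window of their first listed start. The hexamer CACGTG, which reads the same on both strands and is the core letters bound by E-box factors, was in 5 of these 10 windows and in 6.02% of all windows. The CG counts and the CACGTG share of germline genes not called higher are not given. These values therefore do not set the 10 genes apart from the rest of their class. A match of letters is not a measurement of binding or methylation, and neither was measured in these libraries. A comparison of promoters over all called genes was not made, because 77.9% of the tested autosomal genes had an entry.

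A pair of Pramel genes, a clustered family read in the preimplantation embryo, was among the farthest. Pramel7, which promotes naive pluripotency and loss of Uhrf1 protein (chromosome 2, 87489088 to 87492418), stood at 2.63 in CM1, 2.69 in CM2, -2.45 in CM3 and -1.02 in CM7, that is 137 reads in the XX libraries and 4 in the XY libraries (4.40 ± 0.65, adjusted p = 0.00191). Its neighbour Pramel6 had 76 reads against 3, a ratio of levels of 27.0 with a 95% exact counting interval of 8.89 to 134. That interval pools the reads of each sex and leaves out the spread between lines. The fitted difference of Pramel6 was 3.6 ± 0.72 (12.4-fold, adjusted p = 0.00905). Obox6, an oocyte-type homeobox gene, had 41 reads against 8, at 1.11, 0.94, -0.12 and -2.45, and was not called (2.31 ± 0.85, adjusted p = 0.112). Pramel6 and Pramel7 share sequence with other members of their family, so their counts are uncertain. Both calls were lost without CM1 and without CM2 (largest adjusted p of 0.0766 and 0.172), since the XY lines alone then set the spread of a handful of reads.

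Imprinted genes, which are read from 1 parental copy, were called in both directions. Of 18 maternally expressed genes tested, 3 were called higher and 6 lower, with a median of -0.19, and of 24 paternally expressed genes 5 were called higher and 1 lower, with a median of -0.14. One of these 5, Zfp264, is not placed on an autosome in the annotation used, which leaves 4 called higher of 23. The paternal list changed with the XY line used, to 9 higher and 1 lower with a median of 0.13 without CM7, and to 5 higher and 10 lower with a median of -0.24 without CM3. Phlda2, a placental growth restrictor (chromosome 7, 143501545 to 143503145), stood at 3.57 in CM1, 3.89 in CM2, 5.54 in CM3 and 5.23 in CM7 (-1.66 ± 0.19, adjusted p = 0.000439). Plagl1, a zinc-finger factor (chromosome 10, 13090832 to 13131694), stood at 7.33, 7.60, 5.36 and 6.06 (1.76 ± 0.19, adjusted p = 0.000327). These 2 kept their calls without each library. Their directions are opposite, and so were those of other members.

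The maternally expressed RNAs of the Dlk1 to Meg3 cluster on chromosome 12 were lower together. Rian was at 5.00, 4.85, 5.77 and 6.23 (-1.07 ± 0.16, adjusted p = 0.00224), and Meg3 at 4.22, 4.30, 4.79 and 5.28 (-0.78 ± 0.19, adjusted p = 0.0261). Mirg, in the same cluster, was lower (-0.80). Dlk1, the paternally expressed gene there, held 17 reads in the XX and 3 in the XY libraries and was too low to test. At the H19 and Igf2 locus on chromosome 7, H19, a non-coding RNA, was higher at 7.49, 7.20, 6.36 and 6.90 (0.72 ± 0.16, adjusted p = 0.0169; 0.45 without CM3). Igf2, the growth factor beside it, was at 5.12, 5.21, 4.65 and 4.90 and was not called (0.39 ± 0.15, adjusted p = 0.136). Kcnq1ot1 was higher (0.96 ± 0.16, adjusted p = 0.00346), and so was Peg12, at 3.37, 3.60, 1.37 and 1.46 (2.07 ± 0.32, adjusted p = 0.0024). Grb10, an adaptor that dampens insulin signalling, was lower at 6.07, 6.29, 8.11 and 7.03 (-1.39 ± 0.26, adjusted p = 0.00708; -0.85 without CM3). Mest was lower (-0.63; -0.35 without CM7). Snrpn was at 7.26, 7.19, 7.18 and 7.36 and was not called (-0.04 ± 0.09, adjusted p = 0.824), and Peg10 was at 10.52, 10.41, 10.07 and 11.11, with the XY lines on either side of the XX lines (-0.12 ± 0.24, adjusted p = 0.796). The imprinted calls other than those of Phlda2 and Plagl1 were lost without CM1, without CM2 or without either, with largest adjusted p of 0.0522 to 0.259. Reads were not divided by parental copy in these files.

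Subunits of Polycomb complexes, which place or read repressive histone marks, were called higher or not called. Of 17 tested, 5 were called higher and 0 lower, against 5.3% of autosomal genes in each direction, with a median of 0.17. The difference was positive for 11 and negative for 6. Without CM7 the median was 0.11, with 5 higher and 2 lower. Suz12, a core subunit of the complex that methylates histone H3 at lysine 27 (chromosome 11, 79993106 to 80034123), stood at 9.29 in CM1, 9.33 in CM2, 8.64 in CM3 and 8.62 in CM7 (0.68 ± 0.07, adjusted p = 0.000185). Its accessory partners Phf19 (0.80 ± 0.14), Mtf2 (0.37 ± 0.08) and Jarid2 (0.35 ± 0.10) were higher too, Jarid2 by 0.18 without CM7 and 0.53 without CM3. Ezh2 and Eed, of the same complex and named after their values were seen, were not called. Ezh2 differed by -0.10 ± 0.08 (adjusted p = 0.516) and Eed by 0.001 ± 0.09 (adjusted p = 0.996). Bmi1, of the second Polycomb complex, was at 4.12, 4.32, 2.29 and 2.81 (1.67 ± 0.27, adjusted p = 0.00274). Only the call of Suz12 held without each library, and the other 4 were lost without CM1 and without CM2, with largest adjusted p of 0.101 to 0.402.

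Genes of gastrulation marked 1 line, CM7, more than they marked the XY lines. Of 11 mesendoderm genes tested, 3 were called lower in XX and 0 higher, with a median of -1.72. Without CM7 the median was -0.70 and 0 were called, and without CM3 it was -2.81 and 10 were called lower. The 13 members in the table summed to 55.5 CPM in CM1, 56.4 in CM2, 76.5 in CM3 and 397 in CM7, and all 11 tested genes were higher in CM7 than in CM3, by a median of 2.21. T, the primitive-streak factor Brachyury, named after its values were seen, stood at 3.47, 3.54, 4.05 and 7.07 and was not called (-2.05 ± 0.69, adjusted p = 0.0851). Foxa2, an endoderm factor, stood at 0.89, 0.94, 2.29 and 4.71 (-2.58 ± 0.64, adjusted p = 0.0256). Lhx1, a LIM-homeodomain factor of the streak, stood at 0.73, 0.13, 1.77 and 5.42 (-3.17 ± 0.90, adjusted p = 0.0463). CM3 was above the XX lines in both, by much less than CM7 was. Without CM7 the differences were -1.38 for Foxa2 (adjusted p = 0.0758) and -1.34 for Lhx1 (adjusted p = 0.164), and Wnt8a, the third, moved from -1.62 to -1.19 (adjusted p = 0.0538), so that none of the 3 was called. Without CM1 and without CM2 they were not called either, with an adjusted p of up to 0.314.

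Other lineage lists showed single genes rather than a common direction. Of 9 neuroectoderm genes, Sox11 was lower, at 4.93, 4.68, 6.34 and 6.87 (-1.80 ± 0.18, adjusted p = 0.000172), and Ncam1, a cell-adhesion molecule, was higher, at 6.52, 6.58, 5.03 and 5.10 (1.49 ± 0.12, adjusted p = 4.73e-05), both without regard to which library was left out. Of 16 primitive endoderm genes, 3 were called higher and 2 lower. Sox7, an endoderm factor, was higher at 2.84, 2.14, 0.81 and -0.81 (2.49 ± 0.60, adjusted p = 0.0234), Sparc by 0.62 and Lamc1 by 0.25, while Lamb1 was lower (-0.62), as was Foxa2, described above. Of 15 trophoblast and simple epithelium genes, Gata2 (1.15 ± 0.29) and Ets2 (0.76 ± 0.13) were higher and Cdh1 and Epcam lower. All of the primitive endoderm and trophoblast calls were lost without at least 1 XX line, with largest adjusted p of 0.0559 to 0.461. Of 9 genes of primordial germ cell specification, Prdm14 and Kit were called higher, Kit, a receptor tyrosine kinase, at 7.07, 7.18, 6.45 and 6.41 (0.70 ± 0.09, adjusted p = 0.00115, and 0.0755 without CM2). Rarg, a retinoic acid receptor, was the only call among 10 retinoid and Hox genes, and it was lower (-1.0 ± 0.21, adjusted p = 0.0117; -0.65 without CM3; lost without CM1 and without CM2).

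Genes of epithelial junctions were lower where called. Of 15 tested, 8 were called lower and 0 higher, with a median of -0.34 (-0.55 without CM3). Esrp1, a splicing regulator of epithelial cells (chromosome 4, 11331933 to 11386783), stood at 6.06 in CM1, 5.89 in CM2, 7.22 in CM3 and 7.24 in CM7 (-1.25 ± 0.10, adjusted p = 6.48e-05). Cdh1 (E-cadherin) stood at 9.08, 9.06, 9.55 and 9.63 (-0.52 ± 0.07, adjusted p = 0.000817), and Epcam, an epithelial adhesion molecule, was lower (-0.32). The claudins Cldn7 (-1.26 ± 0.19) and Cldn6 (-1.34 ± 0.19) moved further. The 8 genes include Grhl2 and Cldn6, which the formative list holds too. Esrp1 and Grhl2 held their calls without each library, and the other 6 did not, with largest adjusted p of 0.0579 to 0.321.

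**Figure D5:**
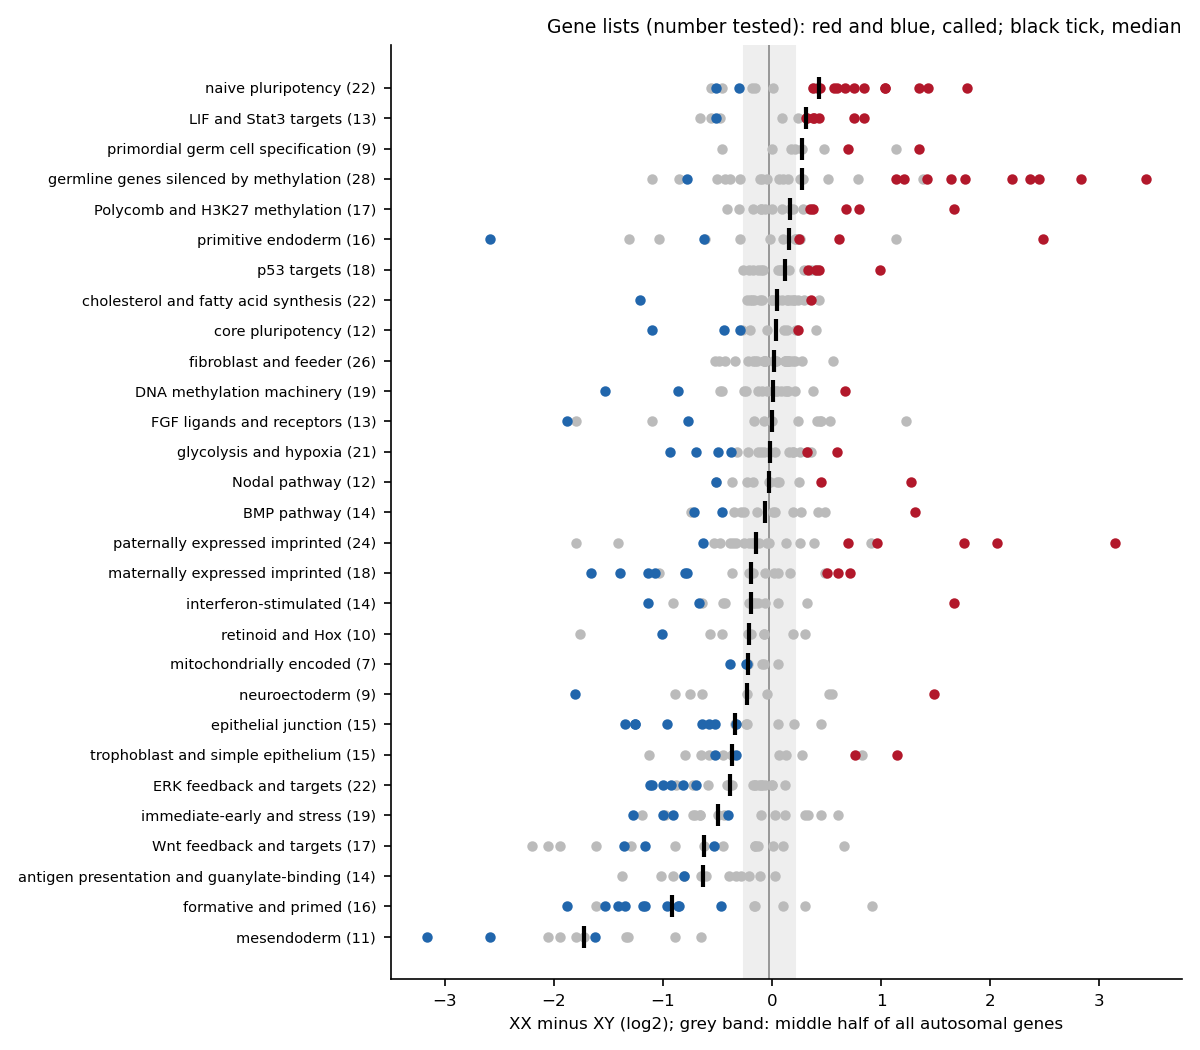
XX minus XY difference (log2) of each tested member of the 29 gene lists with at least 5 tested genes, red where called higher, blue where called lower and grey where not called, with the list median as a black tick and the quartiles of all autosomal genes as a grey band. With all 4 libraries the naive and LIF lists have the highest medians and the formative and mesendoderm lists the lowest.

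Targets of Wnt were called lower in 3 of 17 cases and higher in none, beside 5.3% of all autosomal genes in each direction. The median was -0.62, and it was -0.43 without CM7 and -0.79 without CM3. CM7 was above CM3 in 12 of the 17. Axin2, a feedback inhibitor, stood at 4.64, 4.68, 5.63 and 6.39 (-1.35 ± 0.21, adjusted p = 0.00259), Tcf7, a nuclear effector, was lower (-0.53), and Lef1 is the third. Of 12 Nodal pathway genes, 2 were called higher and 1 lower. Lefty2, a secreted inhibitor of Nodal (chromosome 1, 180893108 to 180899107), stood at 9.00 and 8.96 in the XX libraries and 7.58 and 7.83 in the XY libraries, 2.41-fold higher (1.27 ± 0.09, adjusted p = 3.38e-05), and was called whichever library was left out. Gdf3, a ligand of the same family, was higher by 0.45, and Skil, a corepressor of Smad proteins, lower (-0.52). Of 14 BMP pathway genes, Smad6, an inhibitory Smad, was higher (1.31 ± 0.32, adjusted p = 0.0263), and Id3 (-0.71 ± 0.15, adjusted p = 0.013) and Smad5 (-0.46 ± 0.12, adjusted p = 0.0345) were lower. Apart from Lefty2, these calls were lost without CM1 and without CM2, with largest adjusted p of 0.0717 to 0.354.

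Metabolic genes were called in both directions. Among 22 genes of cholesterol and fatty acid synthesis, the early enzyme Hmgcs1 (chromosome 13, 119690351 to 119708260) was lower, at 7.75, 7.72, 8.83 and 9.06 (-1.21 ± 0.09, adjusted p = 3.56e-05, called in all fits with a library left out), and the list median was 0.05. Of 21 glycolysis and hypoxia genes, 2 were called higher and 4 lower. Pdk1, a kinase that holds pyruvate back from mitochondria, was lower at 7.55, 7.42, 8.60 and 8.24 (-0.93 ± 0.11, adjusted p = 0.000592) and held without each library. Ldha (-0.49 ± 0.07), Tpi1 (-0.37 ± 0.08) and Gapdh (-0.69 ± 0.18) were lower and the glucose transporter Slc2a3 higher (0.32 ± 0.08; 0.19 without CM3). Gapdh has many near-identical pseudogene copies and stood at only 3.97 to 4.79, so its value is uncertain. Of 7 mitochondrially encoded genes in the list and tested, 3 were called lower, mt-Cytb the most (-0.39 ± 0.06, adjusted p = 0.0037), while mt-Co1 was at 12.92, 12.91, 12.90 and 12.83 (0.05 ± 0.05, adjusted p = 0.604). These calls, other than that of Pdk1 and Hmgcs1, were lost without CM1 and without CM2, with an adjusted p of up to 0.513.

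Of 18 p53 targets, 4 were called higher and 0 lower, where 5.3% of all autosomal genes were called in each direction. Mdm2, the ligase that degrades p53, stood at 7.76, 7.91, 7.33 and 7.47 (0.43 ± 0.09, adjusted p = 0.0124), and Sesn1 (0.99 ± 0.20), Trp53inp1 (0.40 ± 0.09) and Pmaip1 (0.33 ± 0.09) were the others. Of 19 immediate-early and stress genes, 4 were called lower and 0 higher, with a median of -0.49. Without CM7 the median was -0.26, with 4 lower and 3 higher, and without CM3 it was -0.78, with 11 lower. Besides Egr1 these were Fosb, at 5.81, 5.88, 6.60 and 7.65 (-1.28 ± 0.25, adjusted p = 0.00918; -0.75 without CM7), Zfp36, at 4.83, 4.80, 5.65 and 5.81 (-0.91 ± 0.13, adjusted p = 0.00191), and Klf6 (-0.40 ± 0.10; -0.26 without CM7). CM7 was above CM3 in 15 of the 19, by a median of 0.68. Of 14 interferon-stimulated genes, Oas1a was higher, at 4.36, 4.51, 2.54 and 2.99 (1.67 ± 0.24, adjusted p = 0.00173), and Ddx58 (-0.67 ± 0.12) and Oasl2 (-1.14 ± 0.31) were lower. Oas1a has close copies beside it, so its value is uncertain. H2-K1, a class I histocompatibility gene, was lower (-0.80). It was the only call among 14 genes of antigen presentation, beside 10.6% of all autosomal genes called in either direction. The list had a median of -0.63, with 13 negative differences, and CM7 was above CM3 in 11 of its genes. Without CM7 the median was -0.16, and without CM3 it was -0.82. B2m stood at 5.66, 5.49, 5.50 and 5.87 (-0.11 ± 0.15, adjusted p = 0.705). None of these calls held in all 4 fits with a library left out, with an adjusted p of up to 0.39.

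The largest autosomal increase was that of a pseudogene. Rps4x-ps (chromosome 5, 3875339 to 3876256) held 1422 reads in the XX libraries, at 5.97 and 6.03, and 0 in both XY libraries, at least 505-fold higher against a floor of 3 reads over the group. It is a copy of the X-linked ribosomal protein gene Rps4x, so its reads and those of the parent gene may be exchanged and the value is uncertain. Sh3tc2, an adaptor protein, stood at 3.30, 3.67, -0.63 and -1.27, 250 reads against 8 (4.43 ± 0.48, adjusted p = 0.000312). Slc13a5, a citrate transporter, stood at 3.67, 3.86, 0.26 and -0.31 (3.79 ± 0.40, adjusted p = 0.00028). Stk33, a kinase of the testis, stood at 5.24, 4.84, 1.47 and 2.18 (3.21 ± 0.29, adjusted p = 0.000122). Leaving out any library did not end these 4 calls. The rest of the 15 largest rested on few reads in the XY lines, as did Rps4x-ps, Sh3tc2 and Slc13a5 (19 reads in the XY libraries). Ren1, the renin gene, had 113 reads against 11 (3.11 ± 0.55), Apom, an apolipoprotein, 124 against 13 (2.98 ± 0.49), Gm6169 91 against 6 (3.31 ± 0.59), and Iqca 131 against 18 (2.83 ± 0.58). The Riken gene 4933427D06Rik (3.47; 2.17 without CM3), Dnajc5g (3.41; 2.03 without CM7), Tspo2 (2.94; 1.73 without CM7), H2-Eb1 (2.84; 1.85 without CM3) and Mslnl (2.92), with the Tuba3b and Pramel7 genes above, complete the 15. These 11 lost the call without CM2, and all but Tuba3b without CM1, with largest adjusted p of 0.0766 to 0.261.

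The 15 largest autosomal decreases include Foxa2 and Lhx1, described above. Epha1, an ephrin receptor (chromosome 6, 42358487 to 42373314), stood at 3.31 in CM1, 3.05 in CM2, 5.51 in CM3 and 6.19 in CM7, 6.37-fold lower in XX (-2.67 ± 0.23, adjusted p = 8.67e-05). Enpp2, the enzyme autotaxin (chromosome 15, 54838901 to 54952789), stood at 2.80, 3.41, 5.36 and 5.02 (-2.09 ± 0.24, adjusted p = 0.000451). Vrtn, a nuclear protein named for its effect on vertebral number, stood at 2.72, 2.45, 4.43 and 4.77 (-2.02 ± 0.24, adjusted p = 0.000532). The calls of these 3 held without each library, and those of the other 12 did not, with largest adjusted p of 0.0516 to 0.354. Grm6, a glutamate receptor, had 19 reads in the XX and 138 in the XY libraries (-2.60 ± 0.56), and Insm1, a neuroendocrine factor, 21 against 143 (-2.56 ± 0.53). Ncan (-2.40 ± 0.40), Jakmip2 (-2.37 ± 0.51), Gna14 (-2.25 ± 0.36), Plac8 (-2.12 ± 0.37), Stap2 (-2.01 ± 0.40) and Cend1 (-2.19 ± 0.55) were lower likewise. Arhgef26 stood at 2.61, 1.00, 3.10 and 4.91, with lines of 1 sex far apart, and its difference of -2.20 became -1.40 without CM2 and -1.30 without CM7. Mal2 stood at 2.38, 0.51, 3.44 and 3.57, and its difference of -2.06 became -1.12 without CM2.

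No autosome stood apart as a whole. The median XX minus XY difference of a chromosome ran from -0.07 on chromosome 14 to 0.01 on chromosome 6. The medians of CM1 minus CM2 ran from -0.04 to 0.01 and those of CM3 minus CM7 from -0.02 to 0.03. The share of genes called ran from 8.85% on chromosome 8 to 12.5% on chromosome 16.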

How the data were processed

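RNA of 2 XX and 2 XY ESC lines was extracted with TRIzol, turned into stranded mRNA libraries (KAPA) and sequenced single-end on an Illumina HiSeq, per the labels' protocols. Tools named in the submitters' processing notes are the aligner STAR (2.5.3a), featureCounts and edgeR, and builds GRCm38 and mm10. What each was used for, and whether counting used strand, is not given in the sources used here. The deposited values are log2 CPM with decimal commas, and the offset was found from the values. Dividing by the worth of 1 read returned whole reads (within 0.01) for 100% of values, which gave the depths. The 20 other sample columns were not used. Symbols were matched to RefSeq GRCm38.p6 (15225 by symbol, 362 by synonym, 1100 not matched).

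The deposited log2 values were fitted with limma 3.58.1 (R 4.3.3), XX minus XY, with a variance trend and no further scaling, over genes that averaged 1 CPM or more in the 4 libraries. This gave 2 residual and 10.1 total degrees of freedom and a median gene SD of 0.16. CPM sums are the authors' values with the log and offset removed. No test compares a gene list with other genes: lists are given by counts and medians beside those of all autosomal genes. The comparison, the 31 gene lists and the genes read were chosen with earlier results of these data known. Named were 6 sex-chromosome checks, the 15 largest called autosomal changes in each direction (groups apart, higher group averaging 4 CPM or more), up to 5 called members of each list by p (the 2 highest where fewer than 2 were called) and a set of pluripotency, methylation, ERK, germline and imprinted genes. Other genes are said to have been named after their values were seen or are given as called members outside the rule. The alternatives changed the pseudocount, filter, scaling, model and libraries. Some members of the lists are not reported here.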

Additional observations from a re-analysis of the deposited data

How the results depend on the processing

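The autosomal total of 1384 calls stayed between 1292 and 1463 with a pseudocount of 1 CPM, a filter of 4 CPM, autosomal median-ratio scaling, quantile normalization, autosomal genes alone or voom on the recovered reads, and voom called 1278 of the same genes. Without a filter on low levels 544 were called, 304 higher and 240 lower. Without the variance trend 1 was called, 1 higher and 0 lower, and 2 X-linked genes; the cause was not tested. With 1 library left out the total ranged from 144 to 3075, from 81 to 1447 higher, from 63 to 1628 lower, and from 97 to 326 for X-linked genes, lowest without CM2 and highest without CM3. The XX minus XY difference of the X-linked minus autosomal median was 0.65 with the filter of 4 CPM and 0.68 to 0.75 with a library left out. Of 126 called named autosomal genes, 88 lost the call without CM1, 89 without CM2, 1 without CM3 and 4 without CM7, and 31 kept it in all 4 of these fits. Peg10 (from -0.64 without CM3 to 0.40 without CM7) and Tet1 (from 0.27 to -0.19) changed direction, as did other genes that were not called with all 4 libraries, among them Dnmt3l, Dnmt1, B2m, Snrpn and Kdm5d. Median-ratio scaling raised the median of the naive list from 0.43 to 0.46. No paired analysis was possible because the XX lines (1 and 2) and the XY lines (3 and 7) share no number. Calls were fewer among genes of low level, as given above; the part of depth in this was not tested.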

Other observations

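Some called genes were neighbours. Counting autosomal tested genes in chromosome order, 16 runs of 3 adjacent genes and 93 runs of 2 were called in the same direction, and none was longer. The other 1150 called genes had no adjacent gene called in the same direction. With 5.3% of autosomal genes called in each direction, some runs would occur without any clustering. Whether there were more than that was not tested. These runs were picked after their values were seen. Zfp42 lies in a run with Triml1 and Triml2, tripartite-motif genes read in the preimplantation embryo, all higher in the XX lines. Pramel7 and Pramel6 form a run with the phosphatase gene Ptprj. Abcb1a and Abcb1b, adjacent drug transporters whose similar sequence makes their separate counts uncertain, were higher with Rundc3b. Parp14, Dtx3l and Parp9, which are known as interferon-responsive and lie together on chromosome 16, were lower, as were Meg3, Rian and Mirg on chromosome 12.

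Among gene families grouped by the stem of their symbols, those with at least 20 tested autosomal members were counted after the values were seen. Of 21 Klhl genes, which encode substrate adaptors of ubiquitin ligases, 6 were called lower (28.6%) and 1 higher. Of 20 Arhgef genes, which encode guanine nucleotide exchange factors, 5 were called lower (25.0%) and 0 higher. Both stand beside 5.3% of all autosomal genes called lower. Other families were called higher and not lower, among them Zbtb (5 of 38), Cdc (4 of 32) and Fbxo (4 of 33). In contrast, 0 of 49 Mrpl genes of the mitochondrial ribosome and 0 of 31 Vps genes of vesicle sorting were called in either direction. The share of all autosomal genes called in either direction was 10.6%. No test was made of these families.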
